A study of Mus musculus with 20 samples.

Results

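Expression of 6 genes that are best known from the nervous system, Penk, Nrn1, Dbh, Tph1, Fabp7 and Ntrk3, was followed in sorted mouse CD4 T cells. Members were the probes whose gene name in the array annotation is one of these 6 symbols. This gave 9 of 39429 probes, and 6 of 24325 gene symbols: 4 probes for Ntrk3 and 1 for each other gene. The genes were selected on their intensities on these same arrays, as genes that differ between follicular and other T cells. Their levels and differences are therefore given as a description, with standard errors (SE) and no p-value.

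RNA was measured on 20 one-colour Agilent arrays, 1 array per sorted sample, and each sample was pooled from 8 to 15 mice of both sexes, 8 to 14 weeks old. All mice were of the strain B6.Cg-Foxp3<tm1Mal>, in which cells with Foxp3 carry a green reporter, so every group shares this allele. Peripheral lymph nodes (pLN) came from mice immunised under the skin with keyhole limpet hemocyanin in alum, 12 days (d12) or 25 days (d25) before the sort. The labels of the Peyer's patch (PP) samples name no immunisation. From pLN, naive T cells (reporter-negative, PD1 low, GL7-), T follicular helper cells (TFH, reporter-negative, PD1 high, GL7+), regulatory T cells (Treg, reporter-positive, PD1 low, GL7-) and T follicular regulatory cells (TFR, reporter-positive, PD1 high, sorted irrespective of GL7) were obtained. From PP, GL7+ and GL7- TFH cells, Treg cells and TFR cells were obtained, and no naive T cells. Each group of pLN d12 and of PP had 2 arrays from separate sorts, and each group of pLN d25 had 1 array. In sorted bulk samples, fewer cells that express a gene and less RNA per cell cannot be told apart.

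In the nervous system these genes take part in several signals. Penk encodes proenkephalin, the precursor that is cut into the opioid peptides Met- and Leu-enkephalin, and Nrn1 encodes neuritin, a small membrane-anchored protein that promotes neurite growth. Dbh turns dopamine into noradrenaline, and Tph1 carries out the rate-limiting step of serotonin synthesis outside the brain, mainly in enterochromaffin cells and mast cells. Ntrk3 encodes TrkC, the receptor of neurotrophin-3, and Fabp7 encodes a fatty acid-binding protein of radial glia and astrocytes.

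The sorts carried their defining markers. Foxp3 lay between 13409 and 35129 on the 10 Treg and TFR arrays and between 27.0 and 192 on the 10 naive T and TFH arrays, and Pdcd1, which encodes PD1, lay between 27456 and 174442 in TFH and TFR cells and between 1297 and 6517 in the others. Values throughout are normalised intensities with a 75th percentile of 1500 and a floor of 20. A probe was called above background where the scanner software marked 3 or more of its 4 printed features so. This held for 43.0% to 58.0% of probes per array, and no feature was saturated. The median local background was 268 on pLN d12 TFR replicate 2 and 24 to 78 on the other arrays. The arrays lay on 5 slides of 4. Slide 4, which held replicate 1 of all PP groups, carried more transcripts of other cells than slide 5, which held replicate 2. The summed level of 12 B cell and plasma cell markers was 31762 to 217412 on slide 4 and 14640 to 24413 on slide 5, and that of 7 epithelial markers was 3525 to 8234 against 743 to 2264. Without the arrays of slide 4, no difference of the 6 genes reported here moved by more than 0.53 on the log2 scale.

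For Ntrk3 the array tells apart 2 transcript variants. Variant 1 encodes full-length TrkC with its tyrosine kinase domain, and variant 2 encodes a truncated TrkC without a kinase. Of the 4 probes, A_52_P500274 (chr7:85445908-85445967) and A_55_P2006808 (chr7:85447515-85447574) are annotated to variant 2, and A_55_P2056533 (chr7:85392044-85392103) and A_66_P118329 (chr7:85337455-85337514) to variant 1. All positions are of mouse assembly mm9, on the minus strand. The probe sequences of the coding part, shown because the results turn on which variant each detects, were as follows, 5′ to 3′ and without capitals since no single base was compared.
A_55_P2006808, truncated variant: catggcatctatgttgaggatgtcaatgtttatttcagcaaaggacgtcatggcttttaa
A_55_P2056533, kinase variant: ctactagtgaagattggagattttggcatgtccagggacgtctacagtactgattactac
A_66_P118329, kinase variant: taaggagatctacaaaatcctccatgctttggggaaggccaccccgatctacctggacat

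The other genes were read by 1 probe each: Penk by A_55_P2035946 (chr4:4060724-4060783, minus strand), Nrn1 by A_51_P308844 (chr13:36817941-36818000, minus strand), Dbh by A_55_P1974243 (chr2:27038665-27038724, plus strand), Tph1 by A_55_P2094262 (chr7:53902553-53902612, minus strand) and Fabp7 by A_51_P290074 (chr10:57508039-57508098, plus strand). Levels of different probes are not comparable with each other, since each probe binds with its own strength.

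**Figure D1:**
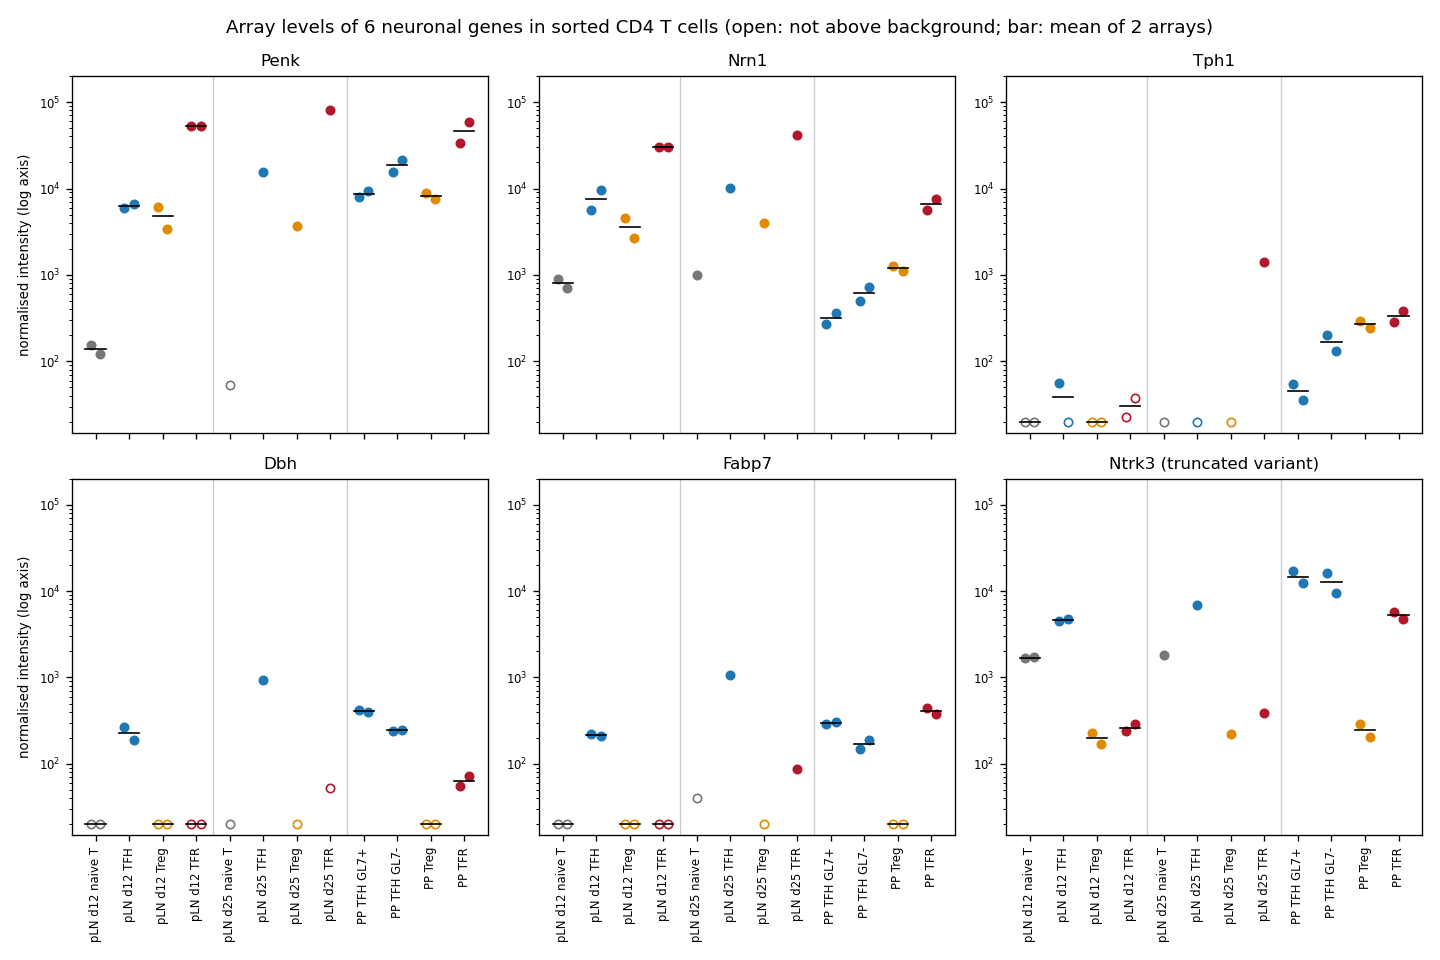
Normalised intensity (log axis) of the 6 genes by group, 1 point per array, with a bar at the mean of 2 arrays and open points for arrays on which the probe was not above background. Penk was highest in TFR cells, where arrays of pLN d12 and PP overlapped, and Nrn1 was highest in TFR cells of pLN. Dbh was above background in TFH cells and PP TFR cells, and Ntrk3 was highest in TFH cells of PP.

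Penk, the enkephalin precursor, was near background in naive T cells and high in all other sorted cells. On d12, its intensity was 155 and 121 in naive T cells, 5981 and 6554 in TFH cells, 6099 and 3435 in Treg cells, and 52318 on both TFR arrays, where the probe took the same rank in the quantile normalisation. The arrays of TFR cells thus lay above all others of that day, those of TFH and Treg cells overlapped, and those of naive T cells lay below all others. TFH cells exceeded naive T cells 45.6-fold (log2 difference 5.51, SE 0.32), and TFR cells exceeded Treg cells 11.4-fold (3.51, SE 0.32), with 3.1 on slide 1 and 3.93 on slide 2. With normexp background correction, which models the local background and adds an offset of 50, the difference between TFH and naive T cells was 4.85. The d25 arrays had the same order, with 53.9 in naive T cells (not above background), 15332 in TFH cells, 3644 in Treg cells and 81836 in TFR cells. The d25 TFR array held the highest Penk level of the series.

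In PP, Penk intensity was 8069 and 9356 in GL7+ TFH cells, 15585 and 21367 in GL7- TFH cells, 8987 and 7585 in Treg cells, and 33683 and 59419 in TFR cells. TFR arrays again lay above the other arrays of the tissue, by 5.42-fold over Treg cells (2.44, SE 0.32), with 1.91 on slide 4 and 2.97 on slide 5. GL7+ TFH cells overlapped with Treg cells (0.07, SE 0.32), while GL7- TFH cells lay 2.10-fold above GL7+ TFH cells (GL7+ minus GL7-, -1.07, SE 0.32). Between tissues, TFR arrays overlapped (-0.23, SE 0.32).

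Enkephalins are released from proenkephalin by convertases and trimming enzymes. Of 13 genes for neuropeptide processing, 11 were tested, and in pLN TFH against naive T cells 3 were higher and 2 lower, where 14.7% of all tested probes were called in either direction. Their median log2 difference was -0.59, beside -0.09 over all tested probes. Cpe, the carboxypeptidase that trims opioid peptides after cleavage, was not above background on any of the 3 naive T cell arrays. It was 253 and 254 in d12 TFH cells, 857 and 785 in Treg cells, and 990 and 1042 in TFR cells. It thus rose in TFR over TFH cells of pLN (2.0, SE 0.21, limma adjusted p = 0.000368). In PP, Cpe was 1039 and 909 in Treg cells and 276 and 344 in TFR cells, so that it fell from Treg to TFR cells (-1.66, SE 0.21, limma adjusted p = 0.000654).

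Ctsl, the lysosomal protease cathepsin L, which can also cut proenkephalin, went the other way. It was 17200 and 9889 in d12 TFH cells but 1313 and 1308 in d12 TFR cells, so that it fell by 3.31 on the log2 scale (SE 0.27, limma adjusted p = 9.36e-05). In PP it was 12390 and 13160 in TFR cells and 1405 and 1987 in Treg cells, and rose from Treg to TFR cells (2.93, SE 0.27, limma adjusted p = 0.000118). The summed level of 6 myeloid and dendritic cell markers, 3 to 6 of them above background, moved in the same direction as Ctsl in both comparisons. In pLN it was 7015 to 9640 in d12 TFH and 3498 to 4335 in d12 TFR cells. In PP it was 10690 in TFR and 6494 in Treg cells of replicate 1, and 3081 and 848 in those of replicate 2. The B cell and plasma cell sum was 75062 on pLN d12 TFH replicate 1 and 15483 on replicate 2. The part of these cells in Ctsl was not tested. Scg5, a chaperone of prohormone convertase PC2, was lower in TFH than in naive T cells (-2.67, SE 0.25, limma adjusted p = 5.13e-05). It was also lower in TFR than in Treg cells of both tissues, by -2.67 (SE 0.25, limma adjusted p = 0.000248) in pLN and -2.79 (SE 0.25, limma adjusted p = 0.000102) in PP. Pcsk4, a convertase known from germ cells, was lower in PP TFR than in PP Treg cells (-1.93, SE 0.50, limma adjusted p = 0.0304), a call lost without any 1 of these 4 arrays (adjusted p up to 0.162) and without slide 4 (0.429).

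None of 5 tested peptidases that break down enkephalins was called in TFH against naive T cells or in TFR against Treg cells of either tissue, and their median log2 differences were 0.13 in the first comparison and 0.00 and 0.08 in the others. Among the other opioid genes, Pomc, the precursor of beta-endorphin, was lower in PP than in pLN TFR cells (-1.38, SE 0.25, limma adjusted p = 0.00553), with 0.0537 without pLN d12 TFR replicate 1 and 0.0576 without slide 4. Of the enkephalin receptors, Oprd1 and Oprk1 were not above background on any array. The probes of Oprm1 disagreed: A_55_P2025443 was above background on all 20 arrays, between 7159 and 28993, whereas the other 3 did not exceed 169 on any array. The level of Oprm1 is therefore uncertain here.

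**Figure D2:**
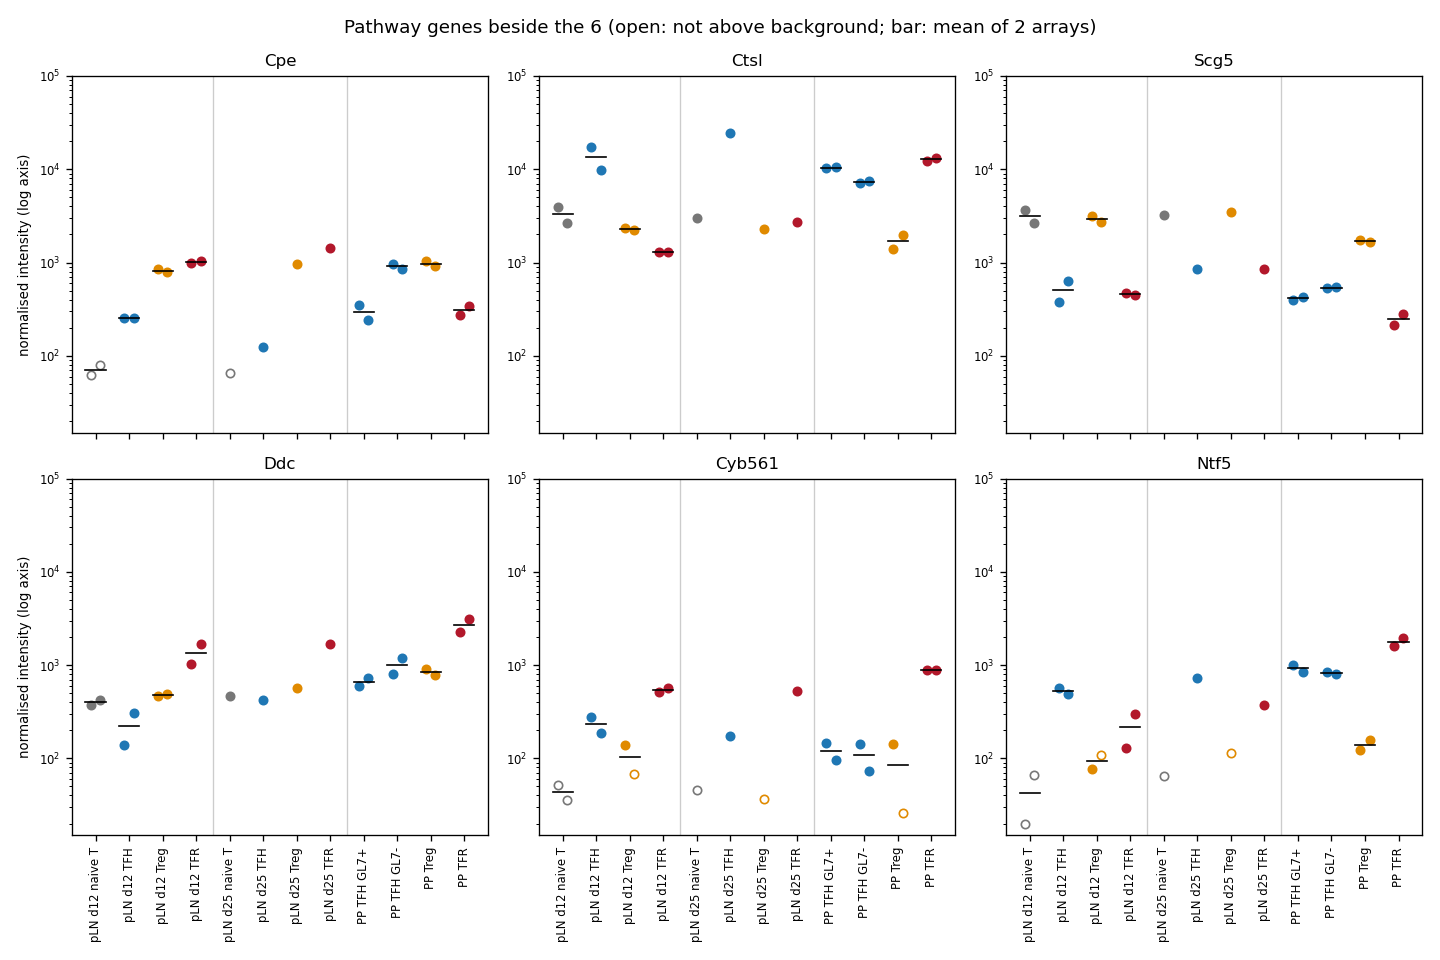
Normalised intensity (log axis) of 6 genes from the pathways around the members, by group, 1 point per array, with a bar at the mean of 2 arrays and open points where the probe was not above background. From Treg to TFR cells, Cpe fell and Ctsl rose in PP, Scg5 fell in both tissues, and Ddc and Cyb561 rose in both.

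Nrn1, the neuritin gene, was lowest in naive T cells and highest in TFR cells in pLN. On d12 it was 903 and 710 in naive T cells, 5690 and 9574 in TFH cells, 4539 and 2682 in Treg cells, and 30367 and 30340 in TFR cells. No arrays of these 4 groups overlapped between groups. TFH cells lay 9.22-fold above naive T cells (3.20, SE 0.33) and TFR cells 8.70-fold above Treg cells (3.12, SE 0.33; 2.74 on slide 1 and 3.50 on slide 2). On d25 it was 1003 in naive T cells, 10019 in TFH cells, 3950 in Treg cells and 41178 in TFR cells.

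In PP, Nrn1 was 270 and 363 in GL7+ TFH cells, 507 and 728 in GL7- TFH cells, 1286 and 1105 in Treg cells, and 5690 and 7500 in TFR cells. Here TFH cells lay below Treg cells, by 1.93 on the log2 scale for GL7+ TFH cells (GL7+ TFH minus Treg, -1.93, SE 0.33), and TFR cells exceeded GL7+ TFH cells 20.9-fold (4.38, SE 0.33). Every cell type had less Nrn1 in PP than in pLN on d12. The difference was -1.55 (SE 0.33) in Treg cells, -2.22 (SE 0.33) in TFR cells and -4.56 (SE 0.33) in GL7+ TFH cells, where it amounted to 23.6-fold. Each slide held 1 tissue and day, so that slide and tissue cannot be told apart in these differences. In order of level, the 2 TFR groups of pLN stood first. The PP GL7+ TFH group stood last, below the naive T cells of pLN. The related gene Nrn1l was above background on 8 of 20 arrays and nowhere above 56.5.

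Dbh, the noradrenaline-forming enzyme, was highest in TFH cells of each tissue. It was 266 and 189 in pLN d12 TFH cells and at the floor of 20 on both arrays of d12 naive T, Treg and TFR cells. Where both arrays of a group were not above background, a fold is given as a bound, with each such array set to at least the lowest intensity of any detected probe on it. On this basis TFH cells exceeded naive T cells at least 3.65-fold and TFR cells lay at least 4.09-fold below TFH cells, and under normexp correction the log2 differences were 1.80 and -1.64. The d25 TFH array held the highest level, 935, and the d25 TFR array showed 53.2, not above background. The d25 TFH array exceeded both d12 TFH arrays, by a log2 difference of 2.06 (SE 0.23). That difference rests on 1 array, and slide and day cannot be told apart in it.

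In PP, Dbh was 423 and 399 in GL7+ TFH cells, 244 and 246 in GL7- TFH cells, 55.7 and 72.7 in TFR cells, and 20 on both Treg arrays. All TFH and TFR arrays of PP were above background. GL7+ TFH cells exceeded Treg cells at least 12.1-fold and GL7- TFH cells 1.68-fold (0.75, SE 0.19), and TFR cells lay 6.46-fold below GL7+ TFH cells (-2.69, SE 0.19). TFR cells exceeded Treg cells at least 1.88-fold. Under normexp correction the log2 differences were -1.68 for TFR against GL7+ TFH cells, 2.48 for GL7+ TFH against Treg cells and 0.81 for TFR against Treg cells.

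The enzymes before Dbh gave RNA signal on all arrays by 1 probe each, and Ddc had a different order of cell types. Th, which makes the dopamine precursor, was above background on all 20 arrays, at 205 to 688, and was called in none of the comparisons. Ddc, which forms dopamine and serotonin from their precursors, was also above background on all arrays, by its probe A_55_P2110497. Ddc was 138 and 305 in d12 TFH cells, 465 and 486 in Treg cells, and 1024 and 1695 in TFR cells. It rose in TFR over TFH cells of pLN (2.68, SE 0.37, limma adjusted p = 0.00193), over Treg cells of pLN (1.47, SE 0.37, limma adjusted p = 0.0298) and over Treg cells of PP (1.66, SE 0.37, limma adjusted p = 0.0161). Both calls against Treg cells were lost without slide 4, with limma adjusted p of 0.0948 in pLN and 0.151 in PP. They were also lost without Treg replicate 1, Treg replicate 2 or TFR replicate 2 in pLN (adjusted p up to 0.206) and without Treg replicate 2 or TFR replicate 2 in PP (up to 0.106). The cell types with the most Ddc were therefore not those with the most Dbh. The other Ddc probe, A_52_P63905, annotated to another transcript variant, was above background only on the 2 PP TFR arrays, at 66.7 and 58.2.

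Cyb561, the cytochrome that supplies reducing power to Dbh inside vesicles, rose from Treg to TFR cells in pLN (2.49, SE 0.68, limma adjusted p = 0.0403) and in PP (3.85, SE 0.68, limma adjusted p = 0.00437). The pLN call was lost when any 1 of 12 arrays was left out, namely each pLN d12 array and each GL7+ TFH and TFR array of PP, with limma adjusted p up to 0.247. Gch1, which starts synthesis of the cofactor of Th and Tph1, was higher in pLN TFH than in naive T cells (1.40, SE 0.21, limma adjusted p = 0.000984). In all, 3 of 11 tested genes of catecholamine synthesis, transport and breakdown were higher and none lower in that comparison (14.7% of all tested probes called), with a median of -0.04 beside -0.09 over all probes. Pnmt, which turns noradrenaline into adrenaline, was above background on 9 arrays, at most at 197. The vesicular transporter Slc18a1 was not above background on any array. For the transporter Slc18a2, 1 probe ranged from 20 to 2334 and the other was not above background anywhere, so that its level is uncertain.

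Of 14 adrenergic and dopamine receptors, 8 were tested. Adra2a, an inhibitory adrenergic receptor, was above background only in PP TFR cells, at 119 and 149. These levels were at least 3.93-fold those of PP Treg cells and at least 2.42-fold those of pLN d12 TFR cells. Since the probe entered the test through PP TFR cells alone and was near the floor elsewhere, no p-value is given.

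Tph1, the enzyme of peripheral serotonin synthesis, was not above background in most pLN samples and was above background in all PP samples. The lowest intensity of a detected probe was 20 to 27.9 on the PP replicate 2 arrays. It was 67.6 to 144 on the pLN d12 replicate 2 and d25 arrays. At low levels the calls of these arrays are therefore not comparable. Arrays of PP GL7+ TFH and pLN d12 TFH cells overlapped in Tph1 (0.40, SE 0.45). In pLN on d12 Tph1 was above background on 1 of 8 arrays, that of TFH replicate 1, at 56.7. TFH replicate 2 was at the floor of 20, as were naive T and Treg cells, and TFR cells were at 22.6 and 37.8, not above background. On d25 naive T, TFH and Treg cells were again at 20. The d25 TFR array stood apart with 1412, the highest Tph1 level of the series. It exceeded d12 TFR cells at least 25.7-fold, a value without a replicate (log2 difference 3.74 under normexp correction).

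In PP, Tph1 was 55.0 and 35.9 in GL7+ TFH cells, 201 and 133 in GL7- TFH cells, 297 and 243 in Treg cells, and 287 and 384 in TFR cells. Treg and TFR arrays overlapped (0.31, SE 0.45). Both lay above GL7- TFH cells, which lay above GL7+ TFH cells (GL7+ minus GL7-, -1.87, SE 0.45). TFR cells exceeded GL7+ TFH cells 7.47-fold (2.90, SE 0.45). Under normexp correction these differences were -0.92 and 1.65. Against pLN on d12, PP Treg cells had at least 6.32-fold more Tph1 and PP TFR cells at least 6.05-fold more (1.99 and 1.85 on the log2 scale under normexp correction). Slide and tissue cannot be told apart here either.

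Since Tph1 is a known product of mast cells and enteroendocrine cells, their markers were read on the same arrays. Of 8 mast cell and basophil markers, 1 to 6 were above background per array. Their summed level was 622 on the d25 TFR array and 481 to 751 on the other d25 arrays, and in PP it was 849 to 1299 in TFR, 463 to 506 in Treg, 648 to 731 in GL7+ TFH and 1195 to 1701 in GL7- TFH cells. Kit, the stem cell factor receptor, was the 1 marker above background on the d25 TFR array, at 411, and lay between 203 and 1267 in PP. Hdc, which forms histamine, and the tryptase gene Tpsb2 were also above background on all PP arrays, at up to 277 and 102. Mcpt8 and Fcer1a were not above background on any of the 20 arrays. The mast cell protease genes Cpa3, Mcpt4 and Cma1 were not above background on the d25 TFR array or on any PP array. They were highest on pLN d12 TFH replicate 1, the 1 pLN d12 array with Tph1 above background, at 177, 290 and 196. Of 7 enteroendocrine markers, at most 3 were above background on an array. Chga and Chgb were 156 and 282 on PP TFR replicate 1 and 20 on PP TFR replicate 2, where Tph1 was the higher of the 2. In the other PP groups, Tph1 and the summed level of the 7 enteroendocrine markers were both higher on replicate 1. These sums were 251 and 172 in GL7+ TFH, 710 and 341 in GL7- TFH, and 511 and 170 in Treg cells. Chga and Chgb were at 20 on the d25 TFR array. The part of mast cells and enteroendocrine cells in Tph1 was not tested otherwise.

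**Figure D3:**
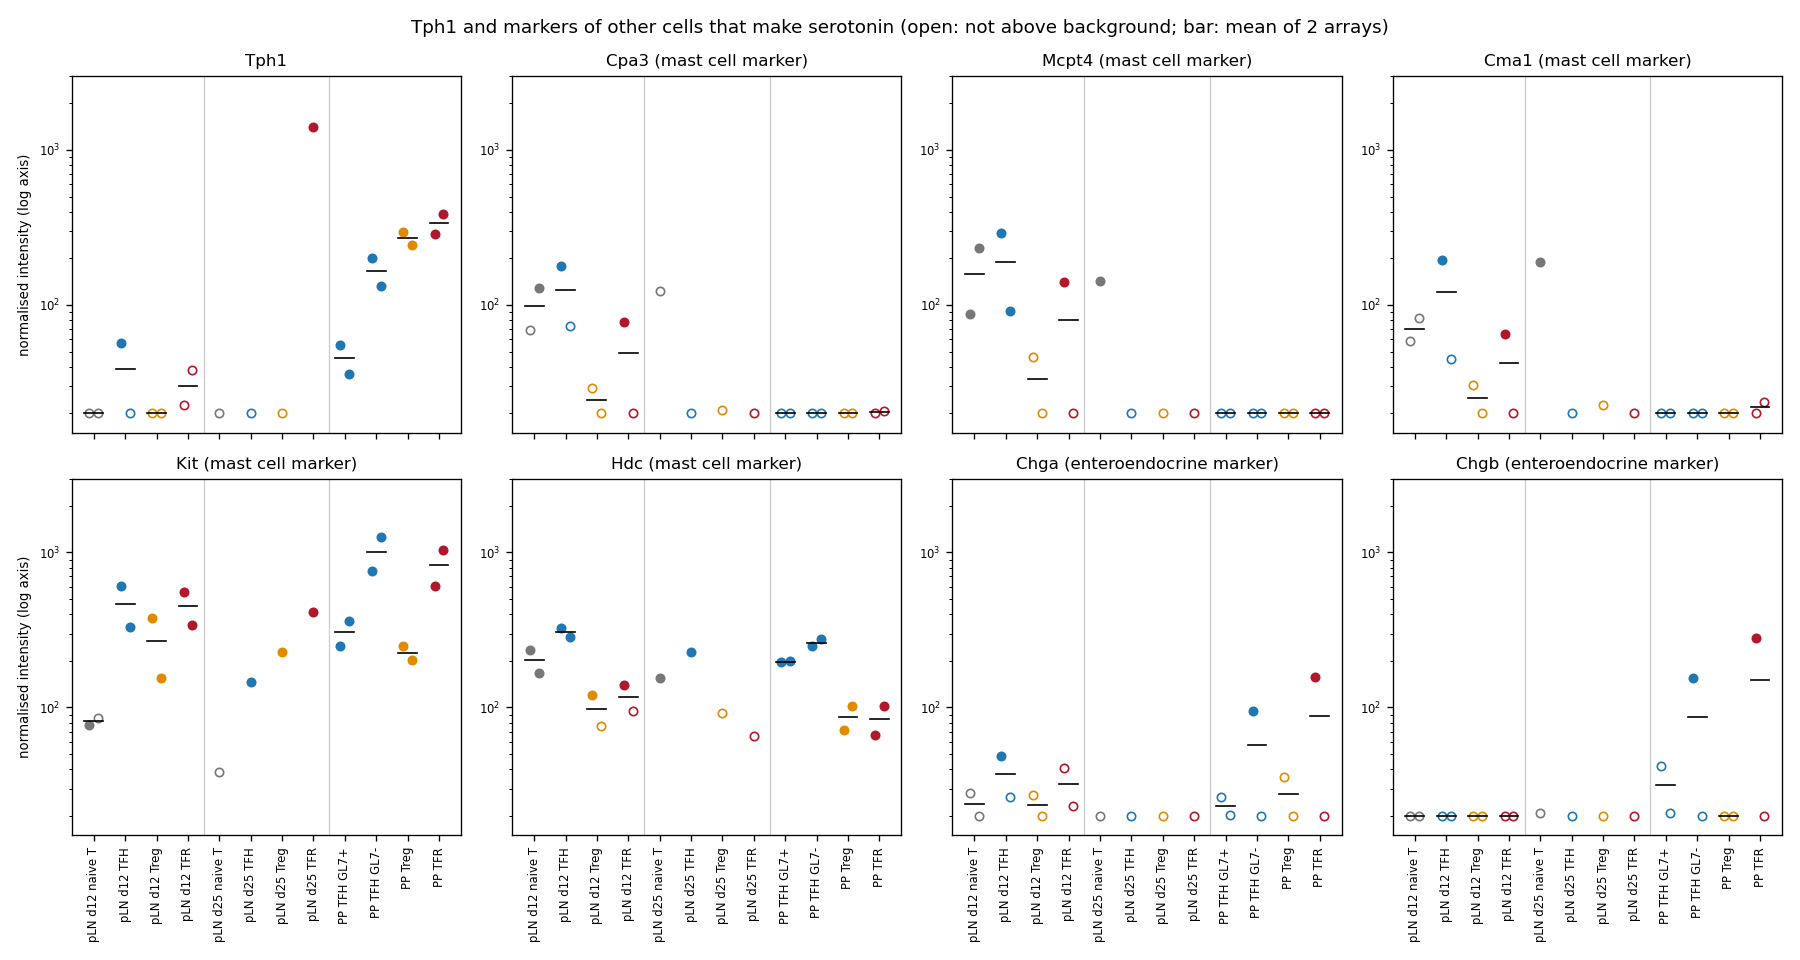
Normalised intensity (log axis) of Tph1 and of 7 markers of mast and enteroendocrine cells, by group, 1 point per array, with a bar at the mean of 2 arrays and open points where the probe was not above background. On the d25 TFR array Tph1 was at 1412, Kit was above background at 411, Hdc was at 65.1, not above background, and the other 5 markers were at the floor of 20.

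Of the serotonin genes other than Tph1, 3 of 18 were tested. Tph2, the neuronal form of the enzyme, and the serotonin transporter Slc6a4 were not above background on any array. Htr7, a serotonin receptor, was 90 and 87.5 in PP TFR cells, at least 2.62-fold the level of PP Treg cells, by 1 of its 2 probes. That probe too entered the test through PP TFR cells alone, and no p-value is given. The other probe was not above background anywhere.

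Fabp7, the glial fatty acid-binding protein, was shared by TFH cells and PP TFR cells. In pLN on d12 it was 225 and 212 in TFH cells and 20 on all arrays of naive T, Treg and TFR cells, so that TFH cells exceeded naive T cells at least 3.55-fold. In PP it was 288 and 303 in GL7+ TFH cells, 148 and 191 in GL7- TFH cells, 20 on both Treg arrays, and 443 and 381 in TFR cells. TFR cells of PP thus lay above all TFH arrays of PP, exceeded PP Treg cells at least 12.1-fold and exceeded pLN d12 TFR cells at least 7.48-fold. Under normexp correction the log2 differences were 1.81 for TFH against naive T cells of pLN, 2.44 for PP TFR against PP Treg cells and 2.38 for PP against pLN TFR cells. GL7+ lay above GL7- TFH cells (0.82, SE 0.16). On d25 it was 1061 in TFH cells, 86.6 in TFR cells, above background, 40.5 in naive T cells, not above background, and 20 in Treg cells. The d25 TFH array exceeded the d12 TFH arrays (2.28, SE 0.19).

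The glial markers S100b, Cdh19 and Gfap were not above background on any of the 20 arrays. The list of 8 glial and Schwann cell markers had 2 to 5 members above background per array, of which Sox10 and Mbp were so on all 20. Its summed level was 12050 to 20597 on slide 4 and 16495 to 23612 on slide 5. This sum was mostly Mbp, which lay between 11488 and 27226 over the 20 arrays, while Sox10, the next highest, reached 348. It therefore cannot show whether glial cells differed between the slides. Of 13 neuronal markers, 3 to 6 were above background per array, among them Snap25, Syp and Elavl4 on all 20, and Prph, Nefl, Nefm, Stmn2 and Rbfox3 on none. Their summed level was higher in PP, at 17938 to 29533, than in pLN, at 7682 to 16798. Snap25 (4195 to 23692) and Syp (1832 to 9285) were its largest members. Slide and tissue cannot be told apart in these sums. The part of other cells in Fabp7 was not tested otherwise.

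Of the lipid-binding proteins other than Fabp7, 7 of 14 were tested, and their median log2 difference was 0.74 in TFH against naive T cells of pLN (all probes -0.09) and 0.98 in PP TFR against Treg cells (all probes -0.05). Fabp5, the form common in lymphocytes, was above background everywhere and rose from Treg to TFR cells of pLN (1.51, SE 0.35, limma adjusted p = 0.0197), from a range of 8287 to 10674 to 26487 to 26926. This call was lost without any 1 of these 4 arrays (adjusted p up to 0.143). Fabp4, the adipocyte form, was 253 and 288 in PP TFR cells and rose at least 7.96-fold over PP Treg cells (limma adjusted p = 0.00362).

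Ntrk3, the TrkC gene, was low in Treg cells of both tissues and, in PP, highest in TFH cells by all 4 probes. By A_52_P500274 of the truncated variant, its intensity in pLN on d12 was 1669 and 1705 in naive T cells, 4449 and 4779 in TFH cells, 231 and 169 in Treg cells, and 238 and 287 in TFR cells. Treg and TFR arrays lay below all naive T arrays, by 8.55-fold for Treg cells (-3.10, SE 0.29), and were close to each other (TFR minus Treg, 0.41, SE 0.29). On d25 it was 1840 in naive T cells, 6977 in TFH cells, 223 in Treg cells and 387 in TFR cells. In PP it was 16859 and 12362 in GL7+ TFH cells, 15952 and 9566 in GL7- TFH cells, 287 and 204 in Treg cells, and 5694 and 4736 in TFR cells.

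TFR cells of the 2 tissues thus differed in Ntrk3. From Treg to TFR cells the probe rose 21.5-fold in PP (4.42, SE 0.29; 4.31 on slide 4 and 4.53 on slide 5) and 1.32-fold in pLN, and the difference between these steps was 4.02 (SE 0.40). It was 3.38 (SE 0.36) by A_66_P118329, which was above background on all of these arrays, and 3.76 (SE 0.69) by A_55_P2006808, which was above background on 1 of 2 arrays each of PP Treg, pLN Treg and pLN TFR cells. By A_55_P2056533 only the PP TFR arrays were above background, so that no difference of the steps is given, and TFR exceeded Treg cells of PP at least 16.7-fold. GL7+ and GL7- TFH arrays of PP overlapped by every probe (0.11 to 0.25).

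The variants parted in TFH cells of pLN on d12. Both probes of the truncated variant were higher in TFH than in naive T cells, by 1.45 (SE 0.29) and 1.23 (SE 0.49), and their arrays did not overlap. The probes of the kinase variant were not: A_66_P118329 was 1274 and 912 in naive T cells and 920 and 1017 in TFH cells (-0.16, SE 0.25), and A_55_P2056533 was 477 and 335 against 282 and 296 (-0.47, SE 0.33). The single d25 arrays showed a gap between the variants too, but there all 4 probes were higher in TFH than in naive T cells. The truncated variant gave 6977 against 1840 and 2516 against 941. The kinase variant gave smaller differences, with 1830 against 1112 (A_66_P118329) and 549 against 453 (A_55_P2056533, log2 difference 0.28, SE 0.46). From pLN d12 to PP, GL7+ TFH cells gained more by the kinase probes, 2.18 (SE 0.25) and 2.53 (SE 0.33), than by the truncated ones, 1.65 (SE 0.29) and 1.06 (SE 0.49). In PP all 4 probes moved alike, with TFR below GL7+ TFH cells by log2 differences of -1.37 to -1.60.

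**Figure D4:**
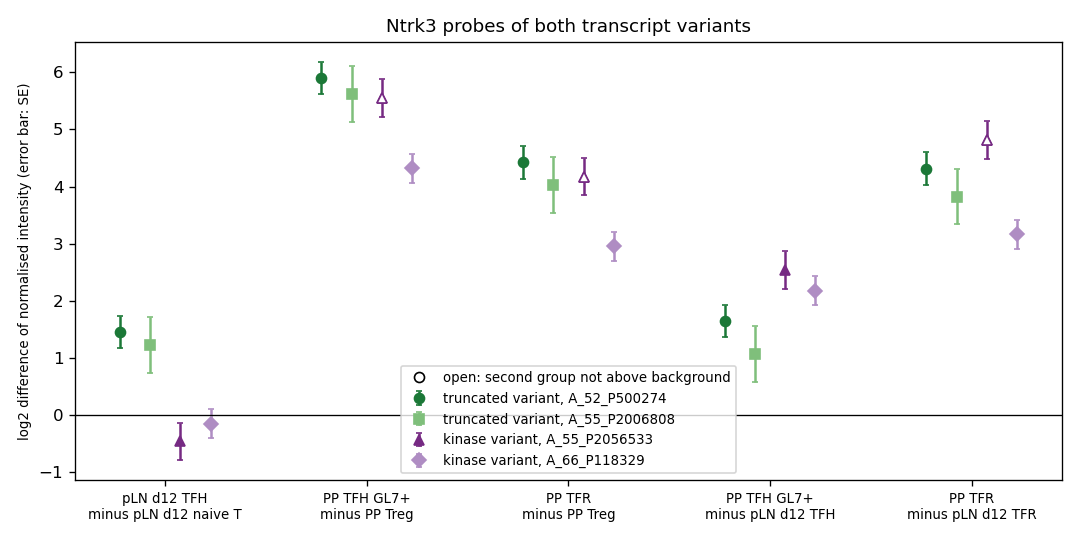
Log2 difference of normalised intensity with its SE for the 4 Ntrk3 probes in 5 comparisons, circles and squares for the truncated variant, triangles and diamonds for the kinase variant, open where the second group was not above background. In pLN d12 TFH minus naive T cells the truncated probes lie at 1.45 and 1.23 and the kinase probes at -0.16 and -0.47.

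Among the other neurotrophin genes, 7 of 11 were tested. Ntf3, the ligand of TrkC, was not above background on any array. Ntf5, a ligand of TrkB, was 561 and 487 in pLN d12 TFH cells and rose at least 8.49-fold over naive T cells (limma adjusted p = 0.000449). In PP TFR cells Ntf5 was 1588 and 1949, against 123 and 157 in PP Treg cells (3.67, SE 0.51, limma adjusted p = 0.00116, and 0.107 without slide 4). Sorcs2, a co-receptor of pro-neurotrophins, fell from Treg to TFR cells in pLN (-3.76, SE 0.27, limma adjusted p = 0.000103) and in PP (-3.34, SE 0.27, limma adjusted p = 5.41e-05). Ntrk2, the TrkB gene, was lower in TFH than in naive T cells of pLN (-1.87, SE 0.32, limma adjusted p = 0.00216) by 1 of its 3 probes, the others being at the floor on all arrays. Of 6 tested adaptors of Trk receptors, Plcg1 was lower in TFR than in TFH cells of pLN (-1.11, SE 0.21, limma adjusted p = 0.0104), a call lost without TFH replicate 1, TFR replicate 1 or TFR replicate 2 (adjusted p up to 0.101).

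**Figure D5:**
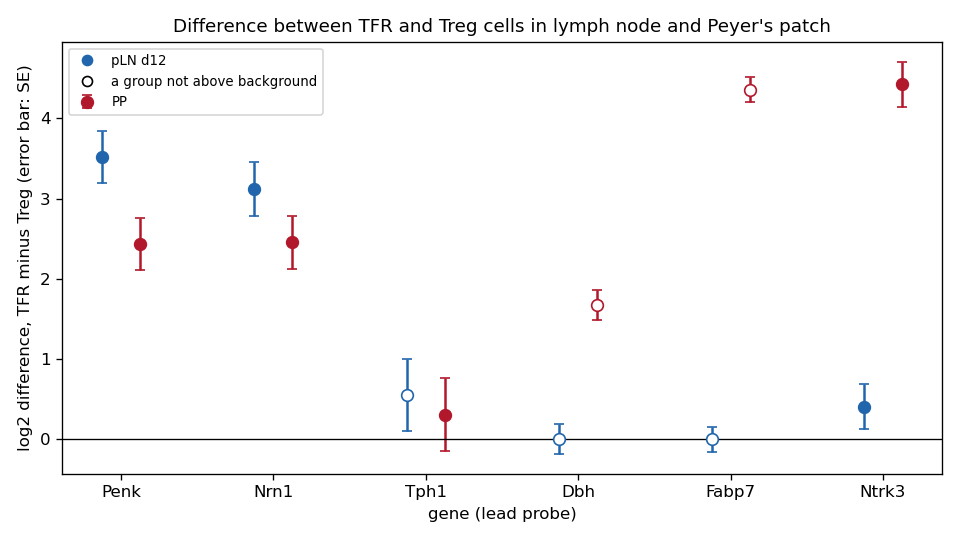
Log2 difference between TFR and Treg cells with its SE for the 6 genes (the truncated probe A_52_P500274 for Ntrk3), blue for pLN d12 and red for PP, open where a group was not above background. Penk and Nrn1 differed by 3.51 and 3.12 in pLN and by 2.44 and 2.45 in PP, while Ntrk3 differed by 0.41 in pLN and 4.42 in PP.

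Set side by side with the whole array, the members passed the call rule used for other genes (adjusted p under 0.05 and a log2 difference of at least 1) as follows, and nothing is read from these counts, since the members were chosen for such differences. With 1 lead probe per gene, 5 of 6 passed in TFH against naive T cells of pLN, where 14.7% of 22264 tested probes did. In pLN, 2 of 6 passed in TFR against Treg cells (8.35% of probes) and 5 in TFR against TFH cells (5.01%). In PP, 5 passed in TFR against Treg cells (9.25%), 5 in GL7+ TFH against Treg cells (9.87%), 5 in TFR against GL7+ TFH cells (3.44%) and 0 in GL7+ against GL7- TFH cells (0.00898%, which is 2 probes). Between PP and pLN d12, 2 passed in Treg cells (2.24%), 2 in GL7+ TFH cells (4.54%) and 5 in TFR cells (11.1%). Dbh and Fabp7 passed in d25 against d12 TFH cells (0.0314% of probes), and Fabp7 and Tph1 in d25 against d12 TFR cells (0.00898%). For the tissue difference of the step from Treg to TFR cells, 3 passed (0.548%).

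Of the 113 other genes on the pathway lists, 64 were tested. In TFH against naive T cells of pLN 9 were higher and 5 lower, in TFR against Treg cells 3 and 3 in pLN and 9 and 5 in PP. Their median log2 differences were -0.04, -0.03 and -0.06, beside -0.09, -0.08 and -0.05 over all tested probes. These shares, 14 of 64, 6 of 64 and 14 of 64, stand beside 14.7%, 8.35% and 9.25% of all tested probes.

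Over the means of the 12 groups, Dbh and Fabp7 had the most similar patterns among the 6 (Pearson r 0.911, Spearman rho 0.917), and each was also near Ntrk3 (r 0.811 and 0.819). Nrn1 and Ntrk3 were the most opposed (r -0.411). Among 14539 other genes, those closest to Penk were Hmgn3 (r 0.987), Pmaip1 (0.983) and Slc9a7 (0.982). Those closest to Nrn1 were Il18 (0.965), Capn5 (0.962) and Ralgds (0.955), and those closest to Dbh were Grk3 (0.986), Adamtsl2 (0.986) and Apoc4 (0.978). Fabp7 was closest to Smim1 (0.977), Gm3367 (0.975) and Cpne7 (0.973), and Ntrk3 to Inpp5b (0.976), 5430434G16Rik (0.973) and C1qtnf4 (0.965). The 3 closest to Tph1 included Hnrnpk (0.926) and Mfsd14b (0.921), for which r over the 20 single arrays was 0.531 and 0.717. These values describe 12 groups that share arrays, slides and normalisation, and the groups with Dbh, Fabp7 and Tph1 at the floor add ties.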

How the data were processed

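Each of the 20 arrays held 1 labelled sample. The authors hybridised RNA to 1-colour Agilent arrays, on which each of 39429 probes is printed 4 times, and the deposited scanner output (Agilent Feature Extraction 10.7.3.1) holds an intensity per feature. The other deposited marks are quality calls of 0 or 1, per the file headers. RNA input was not the same on all slides. The steps of the study's methods were rebuilt from the processed intensity. Features marked as outliers, outside 1.42 times the interquartile range or with a pixel coefficient of variation above 0.5 were left out (13230 to 19426 of 157716 per array), the rest were averaged geometrically and quantile normalised, the 75th percentile was set to 1500, and values under 20 were raised to 20. Set against the authors' deposited normalised intensity, the median absolute log2 deviation per array was 0.0347 to 0.0362. At 20, which held 38.1% of the values of an array, probes have no order. Arrays of a group correlated at r 0.955 to 0.986. The lowest intensity of a detected probe was 20 to 144 per array.

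Groups came from the sample labels. Replicates are separate sorts of pooled mice and were numbered in accession order. The 2 arrays of a group also differed in slide and RNA input, so that p-values measure the spread of sort, slide and input together. The main fit did not pair arrays by slide. With slide as a random block the correlation within slides was 0.742. Several comparisons within slides then had more calls, and the tissue comparisons of Treg and TFH cells had fewer. Tested were the 22264 probes above background in full in 1 or more of the groups with 2 arrays. They were fitted with limma 3.58.1 in R 4.3.3 (lmFit and eBayes, two-sided) on log2 intensity, with the means of 12 groups over all 20 arrays and 8 residual degrees of freedom, which lends single arrays the spread of the groups with replicates. Benjamini-Hochberg adjustment ran over all tested probes. The scripts were tested on simulated data. RefSeq accessions (GRCm38.p6) updated the names of 27508 probes. No coordinates were taken from that assembly.

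The 6 genes and the lists were chosen with earlier results of these data known. Named were all probes of the 6 genes, and list genes that were called at least once or stand directly next to one of the 6 (enzyme, ligand or receptor). A gene's call is that of its probe with the highest mean. The pattern most like each gene was taken by Pearson r over group means, 3 genes each. Alternatives were the deposited values, normexp correction (offset 50), percentile scaling alone, no filter on dim probes, slide as a fixed or random block, only the groups compared, the methods' t-test for GL7, detection by 2 of 4 features, and leaving out single arrays or slide 4. Their use on list genes was added after seeing the data. Some list genes are not reported here.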

Additional observations from a re-analysis of the deposited data

Results flagged for a closer look

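For 3 genes of the pathway lists the step from Treg to TFR cells differed between PP and pLN d12 by the interaction term of the limma fit. For Cpe, the carboxypeptidase of opioid peptide maturation, the difference of the steps was -1.97 (SE 0.30, limma adjusted p = 0.0212). For Ctsl, cathepsin L, it was 3.74 (SE 0.39, limma adjusted p = 0.00264). For the adrenergic receptor Adra2a the fitted value was 2.73, but only PP TFR cells were above background among the 4 groups and the probe entered the test through them alone. That value is set by the floor of 20, and its p is not given. Each slide held a single tissue. Without slide 4 the differences of Cpe and Ctsl were -1.71 and 3.54, with limma adjusted p of 0.163 and 0.150. The Cpe call was also lost when any 1 of 7 arrays was left out, namely each Treg and TFR array of both tissues except PP TFR replicate 2 (limma adjusted p up to 0.111).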

How the results depend on the processing

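The 6 genes gave 78 differences, 48 of them of at least 1 on the log2 scale. Of 1842 values under 24 alternatives, 1735 moved by less than the replicate spread, and none of the 48 changed sign. Many of these values could not move, so the count of 1735 is no measure of stability. Dropping the filter, slide as a block and only the groups compared left the differences as they were (largest shift 0). Leaving out 1 array can change only the differences that involve its group. Shifts over 1.5-fold came with normexp correction (22 differences, mostly of Dbh, Fabp7 and Tph1, which are at or near 20 in several groups) and, for the 4 Tph1 differences that involve pLN d12 TFH cells, without TFH replicate 1 or replicate 2. Without these, TFH minus naive T cells (0.75) became 0 or 1.50, TFR minus TFH cells (-0.20) 0.55 or -0.96, PP GL7+ TFH minus pLN TFH cells (0.40) 1.15 or -0.35, and d25 minus d12 TFH cells (-0.75) 0 or -1.50, so that the sign of the second and of the third rests on 1 array. Detection by 2 of 4 features changed the count of arrays above background for no gene's lead probe, but would add Treg arrays for the Ntrk3 probes A_55_P2056533 and A_55_P2006808.

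The counts of called probes depended on the setting far more. PP GL7+ against GL7- TFH cells had 2, which became 4 with percentile scaling alone, 4 with slide as a fixed block, 27 with slide as a random block, 27 without slide 4, and 0 with normexp correction (217 at unadjusted p under 0.05) and by the methods' t-test (556). With no filter on dim probes, PP against pLN TFH cells had 670, and d25 against d12 had 68 in TFH and 22 in TFR cells. Normexp correction gave 2 and 1 for d25. With only the groups compared, where few degrees of freedom remain, TFH against naive T cells had 1463, pLN TFR against Treg cells 585, PP GL7+ TFH against Treg cells 750, PP against pLN TFR cells 648 and the tissue difference of the step from Treg to TFR cells 21. In that setting limma called 0 probes for pLN TFR against TFH cells (3104 unadjusted), PP TFR against Treg cells (3502), PP TFR against GL7+ TFH cells (2081), GL7 (302), the tissue difference of Treg cells (1969) and of TFH cells (3071), and d25 against d12 TFH (301) and TFR cells (642).

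Slide as a fixed block gave 1835 for pLN TFR against TFH cells, 3092 for PP TFR against Treg cells, 1376 for PP TFR against GL7+ TFH cells and 1019 for the tissue difference of the step. As a random block it gave 1925, 3126, 1462 and 1137 for the same comparisons, 3322 for PP GL7+ TFH against Treg cells, 210 and 529 between tissues for Treg and TFH cells, and 4 and 0 (342 unadjusted) for d25 in TFH and TFR cells. Without slide 4, PP TFR against Treg cells had 996, GL7+ TFH against Treg cells 1207, TFR against GL7+ TFH cells 355, the tissue comparisons of Treg and TFH cells 262 and 217, d25 in TFH and TFR cells 0 and 0 (810 and 1130 unadjusted), and the tissue difference of the step 10.

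Leaving out 1 array at a time gave 2411 to 3307 calls for pLN TFH against naive T cells, 954 to 1839 for TFR against Treg cells and 575 to 1094 for TFR against TFH cells. In PP it gave 1291 to 2020 for TFR against Treg cells, 1509 to 2197 for GL7+ TFH against Treg cells, 385 to 772 for TFR against GL7+ TFH cells and 0 to 11 for GL7. Between tissues the ranges were 164 to 539 for Treg, 252 to 992 for TFH and 1309 to 2500 for TFR cells, 37 to 138 for the step, and for d25 against d12 6 to 16 in TFH and 0 to 3 in TFR cells. The lowest counts came without pLN d12 Treg replicate 2 for pLN TFR against Treg cells, without pLN d12 TFH replicate 1 for pLN TFR against TFH cells, without PP Treg replicate 2 for PP TFR against Treg cells, without PP GL7+ TFH replicate 1 between tissues in TFH cells, and without pLN d12 TFR replicate 1 between tissues in TFR cells and for the step.

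Of 69 calls of list genes, none changed direction. The deposited values kept 69 calls, normexp correction 64, percentile scaling 65, no filter 54, the random block 65, the fixed block 55 of the 55 it can give, only the groups compared 19 and leaving out slide 4 40. Leaving out 1 array kept 56 to 67, and 39 calls were kept under every such omission. The labels number no replicates, so that no block by replicate number was fitted, and the slide was the 1 block used. Probes at or near 20 give only bounds, and groups of 1 or 2 arrays limit the precision of every value.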
